A study of Mus musculus with 8 samples.

Results

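The zinc metalloproteinases of the ADAM, ADAMTS and MMP families and their TIMP inhibitors were described in haematopoietic stem cells (HSCs) of old and young mice. Members were taken by symbol: a row belonged to the families when its gene symbol, or one of the symbols joined in it, began with Adam, Adamts, Adamtsl, Mmp or Timp followed by a digit. This gave 83 of the 38172 rows of the deposited table, of which 32 were ADAM, 24 ADAMTS or ADAMTS-like, 23 MMP and 4 TIMP rows. The rule reads the symbol alone. Old HSCs came from wild-type C57BL/6 mice of 24 months and young HSCs from wild-type C57BL/6 mice of 4 months. Cells of both ages were sorted fresh from bone marrow as SP-KSL-CD150+ (side population cells that carry Kit, Sca-1 and CD150 and lack lineage markers), and polyadenylated RNA was sequenced. There were 2 biological replicates at each age, numbered 13 and 14, with 2 technical libraries of each. Neither the number of animals behind a replicate nor whether a replicate was a separate sort is stated, so p-values measure only the spread between these samples.

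Proteases of these families hold a zinc ion in their active site and are made as inactive precursors. ADAMs sit in the cell membrane and cut the outer parts of other membrane proteins loose, a step called shedding, while ADAMTS enzymes are secreted and cut matrix components such as procollagens, proteoglycans and von Willebrand factor. MMPs cut collagens and other matrix proteins, and those of the membrane type act at the cell surface. TIMPs bind into the active site and block it. In bone marrow these enzymes are known for remodelling the matrix around stem cells and for releasing cytokines, growth factor precursors and adhesion receptors from cell surfaces.

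Levels below are scaled values, that is, whole numbers left after the authors set each library's reads to a common scale, averaged here over the 2 technical libraries of a replicate. A length-corrected FPKM (fragments per kilobase, per library size) is given where members are compared with each other. The libraries held between 22.3 M and 66.5 M reads by the spacing of their values. All 10 HSC markers examined were above the filter on low values, and their sum was 148853 and 164843 in old replicates 13 and 14, against 134485 and 129529 in young replicates 13 and 14. Kit was the largest part of that sum. In the limma test described below all 10 had a fitted change above 0, where 43.5% of all rows were below it. An unadjusted p under 0.05 was reached by 5 of the 10, where 14.0% of all rows reached it. Slamf1 and Procr were called higher, where 2.01% of all rows were. Transcripts of other marrow cells were present too. The sum of 12 neutrophil markers was 13932 and 28409 in the old replicates, against 14547.5 and 55652.5 in the young ones, so it was higher in replicate 14 at both ages. Mpo and Prtn3 were its largest parts in every replicate, so it says little of the other markers. Prtn3 had 7700.5 and 9944.5 in the old replicates, against 4457 and 6940 in the young ones, and alone of the 12 had a fitted change above 0. Ltf had 46.5 and 267 in the old replicates, against 861 and 1135 in the young ones. The sum of 13 stromal markers was 7590 and 6959.5 in the old replicates, against 12968.5 and 13680.5 in the young ones. Runx2 was its largest part in every replicate, at 4235 and 3819 in the old replicates, against 5721 and 5766 in the young ones. Single markers differed more between the ages than the sum did, as with Col1a1 at 65 and 58 in the old replicates, against 905.5 and 1794 in the young ones. In a bulk sample, fewer cells of a type and less RNA per cell cannot be told apart.

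The catalytic site is the feature that sets members able to cut apart from the others. It is encoded by 11 codons that spell 3 zinc-binding histidines and a glutamate. These codons were found in the coding sequence of 61 of the 83 members and in 33 of the 43 members that were tested. Among those without them are all 4 TIMPs, the 5 ADAMTS-like genes and 13 ADAMs, Adam11 and Adam22 among them. Sites are printed for Mmp14, which passed the test described below, and for examples of members that did not. Mmp2 passed that test as well and holds the codons, but its site was not extracted. The sites come from GENCODE M21 transcripts of GRCm38, with 15 bases on either side and the 11 codons in capitals.
Mmp14, chr14:54437627-54437659, plus strand: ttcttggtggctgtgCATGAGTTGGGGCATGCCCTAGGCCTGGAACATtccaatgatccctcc
Mmp15, chr8:95368585-95368617, plus strand: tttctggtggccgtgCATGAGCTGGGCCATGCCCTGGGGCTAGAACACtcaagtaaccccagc
Mmp13, chr9:7276573-7276605, plus strand: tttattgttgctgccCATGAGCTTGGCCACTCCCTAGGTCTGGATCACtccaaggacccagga
Adam10, chr9:70754296-70761585, plus strand, across an exon junction: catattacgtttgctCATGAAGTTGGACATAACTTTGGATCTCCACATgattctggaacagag
Adam17, chr12:21336732-21336764, minus strand: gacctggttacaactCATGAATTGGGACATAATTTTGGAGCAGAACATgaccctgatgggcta
Adamts2, chr11:50775403-50776134, plus strand, across an exon junction: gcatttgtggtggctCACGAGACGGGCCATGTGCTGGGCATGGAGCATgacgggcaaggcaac
Adamts3, chr5:89707433-89707818, minus strand, across an exon junction: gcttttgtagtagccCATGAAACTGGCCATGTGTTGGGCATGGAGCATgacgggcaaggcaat
Over these 33 bases Adamts2 and Adamts3 shared 29, Mmp14 and Mmp15 shared 27, and Adam10 and Adam17 shared 26. Likeness over so short a stretch did not follow the families throughout: Adam8 and Adamts17 shared 30 bases, Adam10 and Mmp14 shared 19, and Adamts2 and Adamts20 shared 16.

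Of the 83 members 43 reached a scaled value of 10 in 2 or more replicates and were tested, which is 51.8%, against 48.0% of all rows. The 40 others comprised 14 rows at 0 in every replicate and 26 rows whose largest replicate value was 10.5. Rows at 0 throughout were Adam24, Adam26a, Adam28, Adam29, Adam34, Adam39, Adam6a, Adamts19, Mmp1a, Mmp1b, Mmp3, Mmp7, Mmp10 and Mmp20. A count of 0 allows up to 3 reads, or 0.135 per M reads in the shallowest library. Several well-known members were near this floor. Adamts13, which cuts von Willebrand factor, had 2.5 and 1.5 in old replicates 13 and 14, against 4 and 2 in young replicates 13 and 14. Timp1, a secreted inhibitor induced in many tissues by inflammation, had 5.5 and 1.5 in the old replicates, against 5.5 and 4 in the young ones. Mmp12, the macrophage elastase, was at 0 in both old replicates, against 1.5 and 0.5 in the young ones.

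Few genes held most of the families' RNA. An average of at least 1 FPKM was reached by 20 members and one of at least 10 FPKM by 6: Adam10, Adamts10, Timp2, Adam17, Adam15 and Mmp14. Adam10, a sheddase that cuts Notch receptors, was the most abundant. It stood at 69.6 and 93.0 FPKM in the old replicates, against 61.3 and 73.7 FPKM in the young ones. It gave 32.1% and 39.3% of the summed FPKM of all members in old HSCs, against 29.9% and 34.7% in young HSCs.

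**Figure D1:**
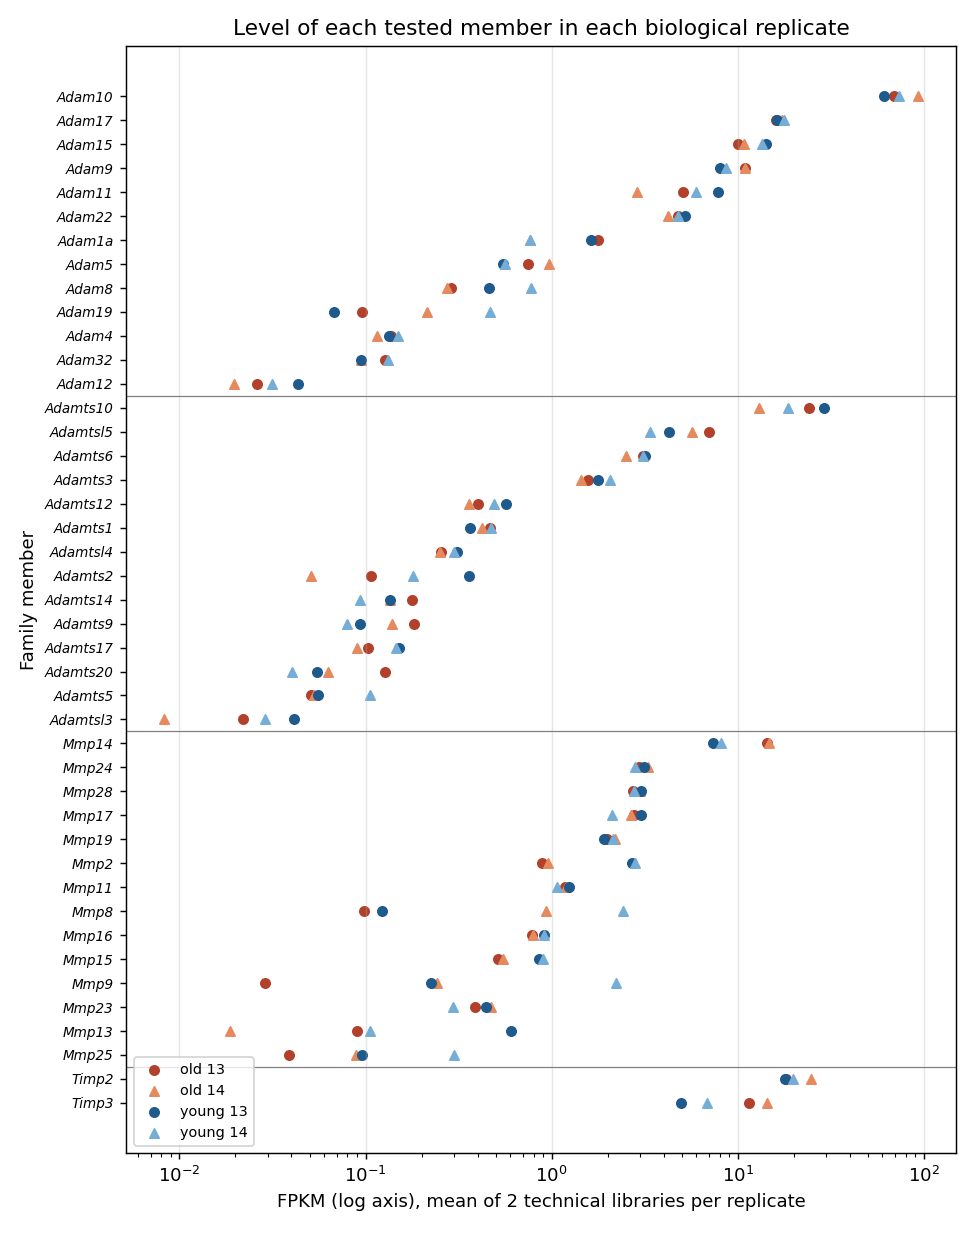
FPKM (log axis) of each of the 43 tested members in old replicates 13 and 14 and young replicates 13 and 14, grouped by family and ordered by mean level. Adam10 lies at the top between 61.3 and 93.0 FPKM, and 23 of the 43 members average under 1 FPKM.

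Old HSCs had more RNA of Mmp14 and Timp3 and less of Mmp2, at an adjusted p under 0.05 in limma with Benjamini-Hochberg adjustment over all 18318 rows tested. Mmp14 encodes the membrane-type protease MT1-MMP, which cuts collagen at the cell surface and activates the Mmp2 precursor. Timp3 encodes the inhibitor that stays bound to matrix and blocks ADAM17 and several ADAMTS enzymes as well as MMPs. Mmp2 encodes gelatinase A, which degrades denatured and basement membrane collagen. The 40 other tested members did not pass, and none of the 13 ADAM or 14 ADAMTS rows tested did. In limma 4 of these ADAM rows and 3 of these ADAMTS rows had an unadjusted p under 0.05, where 14.0% of all rows did. The limma-voom fit called 0 of either. The members called higher were 2 of 43, or 4.65%, where 2.01% of all rows tested were called higher, and the one called lower was 2.33%, where 0.540% of all rows were called lower.

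Mmp14 lies on chromosome 14 from 55050441 to 55060095 on the plus strand of mm9. Its scaled value was 1871 and 1915 in old replicates 13 and 14, against 958.5 and 1050 in young replicates 13 and 14. The single technical libraries lay between 1852 and 1963 in old HSCs and between 905 and 1060 in young HSCs, so neither replicates nor libraries of the ages overlapped. The means were 1893 ± 31.1 in old and 1004 ± 64.7 in young HSCs (SD, n = 2 each). The fold was 1.89, with a log2 fold change of 0.92 (SE 0.14) and an adjusted p of 0.0256 in limma. In FPKM the gene stood at 14.5 and 14.8 in the old replicates, against 7.41 and 8.12 in the young ones. It gave 49.9% and 47.4% of the summed FPKM of all MMPs in old HSCs, against 28.8% and 28% in young HSCs.

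Timp3 lies on chromosome 10 from 85763157 to 85812250 on the plus strand of mm9, inside Syn3 on the other strand. Its scaled value was 2689.5 and 3384 in the old replicates, against 1159 and 1607.5 in the young ones. Both old replicates were above both young ones, and replicate 14 was the higher at each age. The means were 3037 ± 491 in old and 1383 ± 317 in young HSCs (SD, n = 2 each), a fold of 2.21. The log2 fold change was 1.14 (SE 0.20) with an adjusted p of 0.0394 in limma. Whether counting used strand is not stated, so reads of Timp3 and Syn3 may not be separable. Syn3 averaged 763.75 in old and 838.25 in young HSCs. The part of Syn3 reads in the value of Timp3 was not tested.

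Mmp2 lies on chromosome 8 from 95351227 to 95377319 on the plus strand of mm9 and overlaps an unnamed model on the other strand. Its scaled value was 134 and 145.5 in the old replicates, against 410.5 and 423 in the young ones. Replicates of an age were close to each other, and the technical libraries ran from 125 to 151 in old HSCs and from 409 to 437 in young HSCs. The means were 139.8 ± 8.13 in old and 416.8 ± 8.84 in young HSCs (SD, n = 2 each), an old to young ratio of 0.336. The log2 fold change was -1.57 (SE 0.20) with an adjusted p of 0.0128 in limma. The overlapping model averaged 42.75 in old and 124.75 in young HSCs, in the same direction. The level of Mmp2 was low at both ages, at 0.885 and 0.961 FPKM in the old replicates, against 2.71 and 2.79 FPKM in the young ones.

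All 3 calls were lost when any 1 biological replicate was left out and when no filter on low values was used. The call of Timp3 was also lost with median-ratio factors (adjusted p = 0.0571) and with the higher-numbered technical library of each replicate alone (adjusted p = 0.0801).

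**Figure D2:**
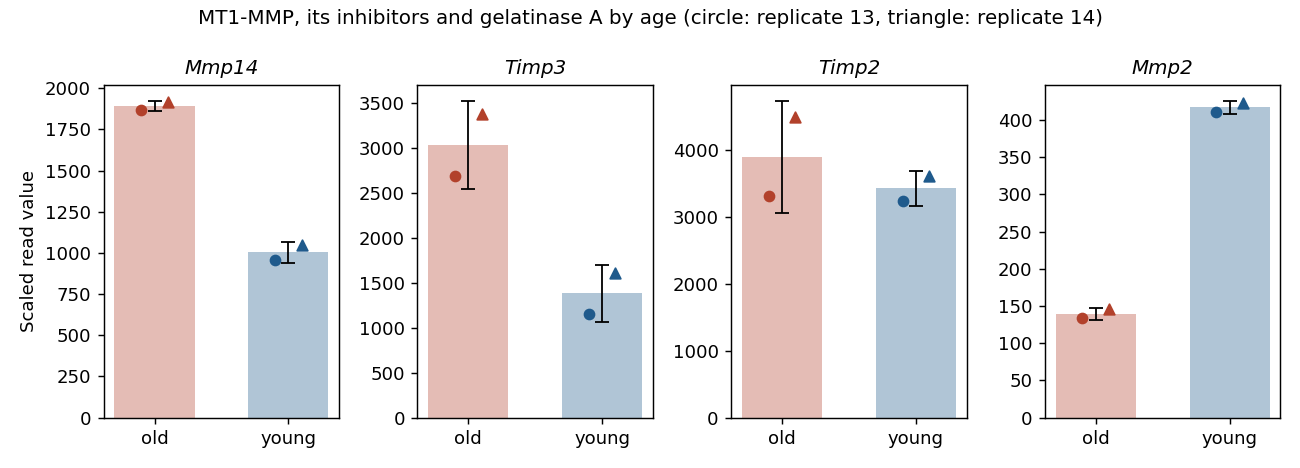
Scaled read value of Mmp14, Timp3, Timp2 and Mmp2 in old and young HSCs, with a bar at the mean, an error bar of 1 SD (n = 2) and a point for each biological replicate. Both old replicates lie above both young ones for Mmp14 and Timp3 and below them for Mmp2, and the ages overlap for Timp2.

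Mmp14, Timp2 and Mmp2 work together: Timp2 binds MT1-MMP and holds the Mmp2 precursor for activation, and at higher levels it blocks the protease. Timp2 had 3302.5 and 4486 in the old replicates, against 3240 and 3603.5 in the young ones. Its ages overlapped, with a log2 fold change of 0.17 (SE 0.18) and an adjusted p of 0.767 in limma. In FPKM, Mmp14 stood at 0.792 and 0.597 times the level of Timp2 in old HSCs, against 0.414 and 0.407 times in young HSCs. The FPKM ratio of Mmp14 to Mmp2 was 16.3 and 15.4 in old HSCs, against 2.73 and 2.91 in young HSCs. Timp3 stood at 0.63 and 0.584 times the FPKM of Timp2 in old HSCs, against 0.277 and 0.345 times in young HSCs. The summed FPKM of the TIMPs over that of the MMPs was 1.03 and 1.26 in old HSCs, against 0.895 and 0.927 in young HSCs. These ratios are descriptions, with no test of their own. Timp2, Mmp24 and Mmp19 overlap the rows BC100451, BC029722 and Tmem198b, so some of their reads may not be separable either.

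The other membrane-type MMPs did not pass the test. Mmp15, which encodes MT2-MMP, had 110.5 and 117 in the old replicates, against 182.5 and 192.5 in the young ones. Its old replicates were both below its young ones, with a log2 fold change of -0.72 (SE 0.22), an unadjusted p of 0.0149 and an adjusted p of 0.195 in limma. Mmp24, which encodes MT5-MMP and was the second most abundant MMP in FPKM, had 637.5 and 705.5 in the old replicates, against 676.5 and 599.5 in the young ones. The log2 fold change of Mmp24 was 0.07 (SE 0.17) with an adjusted p of 0.906 in limma. Mmp16 had 180 and 181.5 in the old replicates, against 209 and 207.5 in the young ones. Mmp17, whose protein is held by a lipid anchor, had 484 and 464 in the old replicates, against 524.5 and 367 in the young ones. Of the 6 membrane-type rows 3 had a fitted change above 0 and 3 below it.

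Mmp9, Mmp8, Mmp25 and Adam19 differed widely between replicates of 1 age. Mmp9, gelatinase B of neutrophils and monocytes, had 4.5 and 38 in the old replicates, against 35 and 349 in the young ones. Its ages overlapped, with a log2 fold change of -3.01 (SE 1.23), an unadjusted p of 0.0441 and an adjusted p of 0.333 in limma. Mmp8, the neutrophil collagenase, had 12 and 114.5 in the old replicates, against 15 and 296 in the young ones. Mmp25, a membrane-type member known from leukocytes, had 6.5 and 15 in the old replicates, against 16 and 50.5 in the young ones. Adam19, an ADAM proteinase known for cutting neuregulin precursors, had 30.5 and 68 in the old replicates, against 21.5 and 149 in the young ones. In all of these replicate 14 exceeded replicate 13 at both ages, as did the sum of the neutrophil markers given above. Of the 12 neutrophil markers counted without Mmp8 and Mmp9, 11 had a fitted change below 0, where 43.5% of all rows did. None was called by limma or by limma-voom, and none was at 0 in every replicate. In limma 5 of the 12 had an unadjusted p under 0.05, where 14.0% of all rows did. The summed level of 8 monocyte and macrophage markers was 1681.5 and 4774 in the old replicates, against 1309 and 7894.5 in the young ones. The part of such transcripts in these members' values was not tested.

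**Figure D3:**
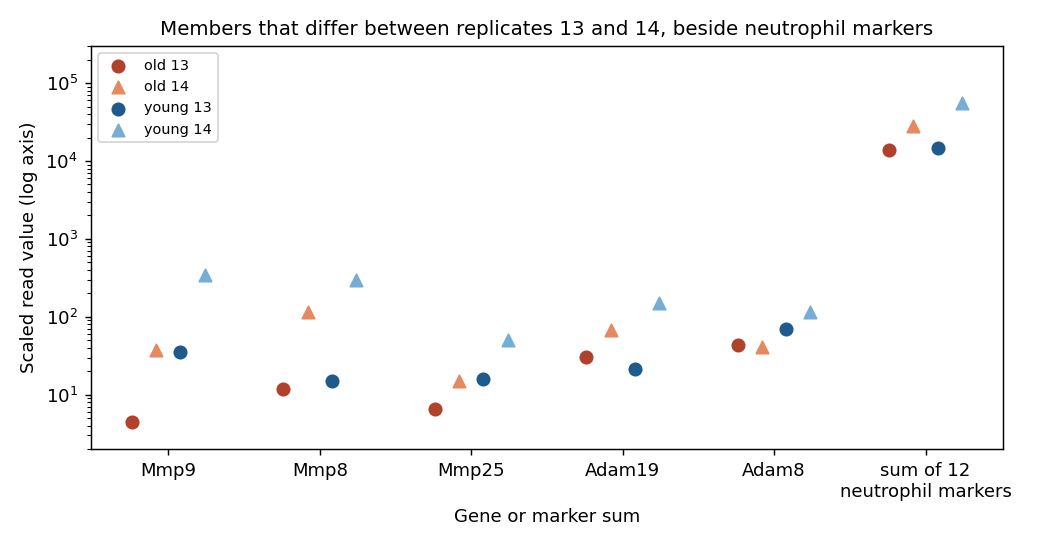
Scaled read value (log axis) of Mmp9, Mmp8, Mmp25, Adam19 and Adam8 and of the sum of 12 neutrophil markers in the 4 biological replicates. Replicate 14 (triangles) lies above replicate 13 (circles) at both ages except for Adam8, where old replicate 14 has 41.5 and old replicate 13 has 43.5.

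Mmp13, collagenase 3 of cartilage and bone-forming cells, had 12 and 2.5 in the old replicates, against 80.5 and 14 in the young ones. For Mmp13 the log2 fold change was -2.48 (SE 0.95), with an unadjusted p of 0.0347 and an adjusted p of 0.297 in limma. Stromal markers stood in the same direction as Mmp2 and Mmp13, and 12 of the 13 were tested. All 12 had a fitted change below 0, where 43.5% of all rows did. Col1a1, Sparc and Col3a1 were called lower, where 0.540% of all rows were. Bglap, the osteocalcin gene of osteoblasts, was the untested one, at 0 in both old replicates, against 3 and 29.5 in the young ones. The part of stromal transcripts in Mmp2 and Mmp13 was not tested. The remaining tested MMPs had log2 fold changes between -0.02 and 0.23. They were Mmp11, or stromelysin 3, Mmp19, Mmp23 and Mmp28, or epilysin. Mmp28 was the third most abundant MMP in FPKM and had 316 and 342 in the old replicates, against 349 and 317.5 in the young ones. In the fit Mmp28 had a log2 fold change of -0.02 (SE 0.19) with an adjusted p of 0.983 in limma.

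The MMP genes of chromosome 9 lie in 1 cluster of 10 rows between bases 7272514 and 7699416 in mm9, and only Mmp8 and Mmp13 of them passed the filter. In the 250 bases before the start, 7 of the 10 cluster promoters held both an AP-1 motif (TGANTCA, the letters bound by Fos and Jun) and a TATA box (TATAAA), and 0 held a GC box (GGGCGG). Of the 8 other MMP promoters in the RefSeq table of GRCm38.p6, 0 held the AP-1 motif, 1 the TATA box and 6 the GC box. Mmp2, Mmp9, Mmp16, Mmp17 and Mmp19 had no promoter in that table, so theirs were not searched. Both strands were searched, and the shares over 27025 promoters were 6.87% for AP-1, 13.0% for TATA, 1.32% for the pair together and 32.9% for the GC box. The last 120 bases before the start are printed for 3 cluster genes and for Mmp14, Timp3 and Timp2, to set the 2 kinds of promoter side by side, 5′ to 3′ on the gene's strand, with these motifs in capitals.
Mmp3, chr9:7445702-7445821: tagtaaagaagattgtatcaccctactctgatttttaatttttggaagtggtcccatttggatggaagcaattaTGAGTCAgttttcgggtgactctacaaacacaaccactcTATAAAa
Mmp10, chr9:7502222-7502341: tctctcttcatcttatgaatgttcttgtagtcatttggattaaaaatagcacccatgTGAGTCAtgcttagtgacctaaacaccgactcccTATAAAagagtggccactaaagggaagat
Mmp13, chr9:7272394-7272513: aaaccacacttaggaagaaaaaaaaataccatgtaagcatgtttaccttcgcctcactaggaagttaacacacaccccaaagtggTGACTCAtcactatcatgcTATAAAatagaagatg
Mmp14, chr14:54431478-54431597: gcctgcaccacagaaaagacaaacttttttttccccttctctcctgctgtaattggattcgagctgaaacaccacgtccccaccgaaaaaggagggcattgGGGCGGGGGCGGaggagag
Timp3, chr10:86300292-86300411: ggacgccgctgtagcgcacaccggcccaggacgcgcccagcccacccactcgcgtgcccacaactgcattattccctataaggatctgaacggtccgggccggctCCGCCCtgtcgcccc
Timp2, chr11:118355412-118355531, minus strand: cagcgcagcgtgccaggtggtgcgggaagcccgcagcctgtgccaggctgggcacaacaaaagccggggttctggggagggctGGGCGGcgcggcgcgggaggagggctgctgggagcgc
Mmp3 and Mmp10 were at 0 in every replicate and Mmp13 lay between 2.5 and 80.5, while Mmp14, Timp2 and Timp3 were among the most abundant members. Level did not follow the motifs throughout. In the cluster Mmp8, Mmp12 and Mmp27 held none of these motifs, and Mmp8 lay between 12 and 296. Timp1 and Adamts2 held a GC box and were low, at 1.5 to 5.5 and 9.5 to 67. A motif match is a description of the letters and not a bound site, and the capitals in Timp3 mark the GC box on the other strand.

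Of the 11 ADAMs classed by textbook role as active proteinases, 7 were tested and 5 of the 7 had a fitted change below 0. The codons of the site were also found in 8 ADAMs outside this class, of which Adam1a alone was tested. Adam17, the sheddase of TNF and of many growth factor precursors, was the second most abundant of the ADAMs, with a mean of 16.8 FPKM over the 4 replicates. In scaled values it had 3511 and 3805.5 in old HSCs, against 3565 and 3911 in young HSCs, with a log2 fold change of -0.03 (SE 0.14) and an adjusted p of 0.959 in limma. Adam10 had scaled values of 15917 and 21274 in old HSCs, against 14023.5 and 16850 in young HSCs. Its ages overlapped, with a log2 fold change of 0.26 (SE 0.20) and an adjusted p of 0.670 in limma. In both sheddases the replicates of the 2 ages overlapped. Adam10 overlaps an unnamed model on the other strand that averaged 4385.5 in old and 3348.75 in young HSCs, and Adam17 overlaps Iah1, so some of their reads may not be separable.

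Other catalytic ADAMs separated the ages without passing the adjusted test. Adam9, a widely expressed sheddase, had 2169 and 2180 in the old replicates, against 1592 and 1707.5 in the young ones. The log2 fold change of Adam9 was 0.40 (SE 0.14), with an unadjusted p of 0.0231 and an adjusted p of 0.243 in limma. Adam15, whose outer part can bind integrins, had 1487.5 and 1597 in the old replicates, against 2112 and 2007.5 in the young ones. For Adam15 the log2 fold change was -0.42 (SE 0.14), with an unadjusted p of 0.0203 and an adjusted p of 0.226 in limma. Adam8, an ADAM of myeloid cells, had 43.5 and 41.5 in the old replicates, against 69 and 116 in the young ones. In the fit Adam8 had a log2 fold change of -1.07 (SE 0.34), with an unadjusted p of 0.0165 and an adjusted p of 0.204 in limma. Adam12 was near the filter, with 10 and 7.5 in the old replicates, against 16.5 and 12 in the young ones.

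ADAMs without a catalytic site are known from adhesion rather than cutting. Adam11 had 1288.5 and 732 in the old replicates, against 2000.5 and 1522 in the young ones. Both old replicates were below both young ones, and replicate 13 was the higher at each age. The log2 fold change of Adam11 was -0.85 (SE 0.28), with an unadjusted p of 0.0197 and an adjusted p of 0.224 in limma. Adam22, known as a receptor for LGI1 in neurons, had 2213 and 1938.5 in the old replicates, against 2391 and 2210 in the young ones, and its ages overlapped. Adam5, known from testis, had 104 and 133.5 in the old replicates, against 75.5 and 77.5 in the young ones, with an adjusted p of 0.362 in limma. Adam32 and Adam4 stayed under 20 in every replicate. Adam1a, a fertilin subunit gene, does hold the codons of the site. It had 275.5 and 118 in the old replicates, against 253 and 118.5 in the young ones, so replicates of 1 age differed more than the ages did. Of 12 ADAM rows on chromosome 8 only Adam5, Adam9 and Adam32 passed the filter.

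In the ADAMTS family the most abundant member, Adamts10, also varied most between replicates in absolute value. Its protein binds fibrillin microfibrils. It had 4904 and 2622.5 in the old replicates, against 5863.5 and 3762 in the young ones. Its ages overlapped, with a log2 fold change of -0.39 (SE 0.33) and an adjusted p of 0.694 in limma. Adamtsl5, a matrix protein without protease activity that binds fibrillin, had 1058 and 856.5 in the old replicates, against 650 and 514 in the young ones. For Adamtsl5 the log2 fold change was 0.72 (SE 0.20), with an unadjusted p of 0.0080 and an adjusted p of 0.141 in limma. Adamts6, a relative of Adamts10, had 745.5 and 603.5 in the old replicates, against 761 and 740.5 in the young ones. In the fit Adamts6 had a log2 fold change of -0.16 (SE 0.17) with an adjusted p of 0.771 in limma.

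All 3 procollagen N-proteinases, which trim the amino-terminal end of fibrillar procollagens, were tested. Adamts2 had 20 and 9.5 in the old replicates, against 67 and 33.5 in the young ones. The log2 fold change of Adamts2 was -1.74 (SE 0.51), with an unadjusted p of 0.0115 and an adjusted p of 0.169 in limma. Adamts3, the most abundant of them, had 601.5 and 549 in the old replicates, against 681.5 and 782.5 in the young ones, with a log2 fold change of -0.35 (SE 0.17) and an adjusted p of 0.448. Adamts14 had 46 and 35 in the old replicates, against 35 and 24 in the young ones. So Adamts2 and Adamts3 had fitted changes below 0 and Adamts14 above 0, none past the adjusted test.

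Of the 7 proteoglycanases, which cut aggrecan and versican, 4 were tested and 3 had a fitted change above 0. Adamts9 had 54.5 and 41.5 in the old replicates, against 28 and 24 in the young ones. For Adamts9 the log2 fold change was 0.86 (SE 0.34), with an unadjusted p of 0.0372 and an adjusted p of 0.308 in limma. Adamts20 had 55.5 and 27.5 in the old replicates, against 24 and 17.5 in the young ones. Adamts1 lay between 88.5 and 115.5 in all 4 replicates, and Adamts5 between 20.5 and 43. Adamts12, which cuts cartilage oligomeric matrix protein, had 124.5 and 112 in the old replicates, against 177 and 152 in the young ones. Adamts17, another member tied to fibrillin, had 31 and 27 in the old replicates, against 45.5 and 44 in the young ones. The ADAMTS-like genes Adamtsl3 and Adamtsl4 had fitted changes below 0 as well, with adjusted p-values of 0.409 and 0.773 in limma.

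**Figure D4:**
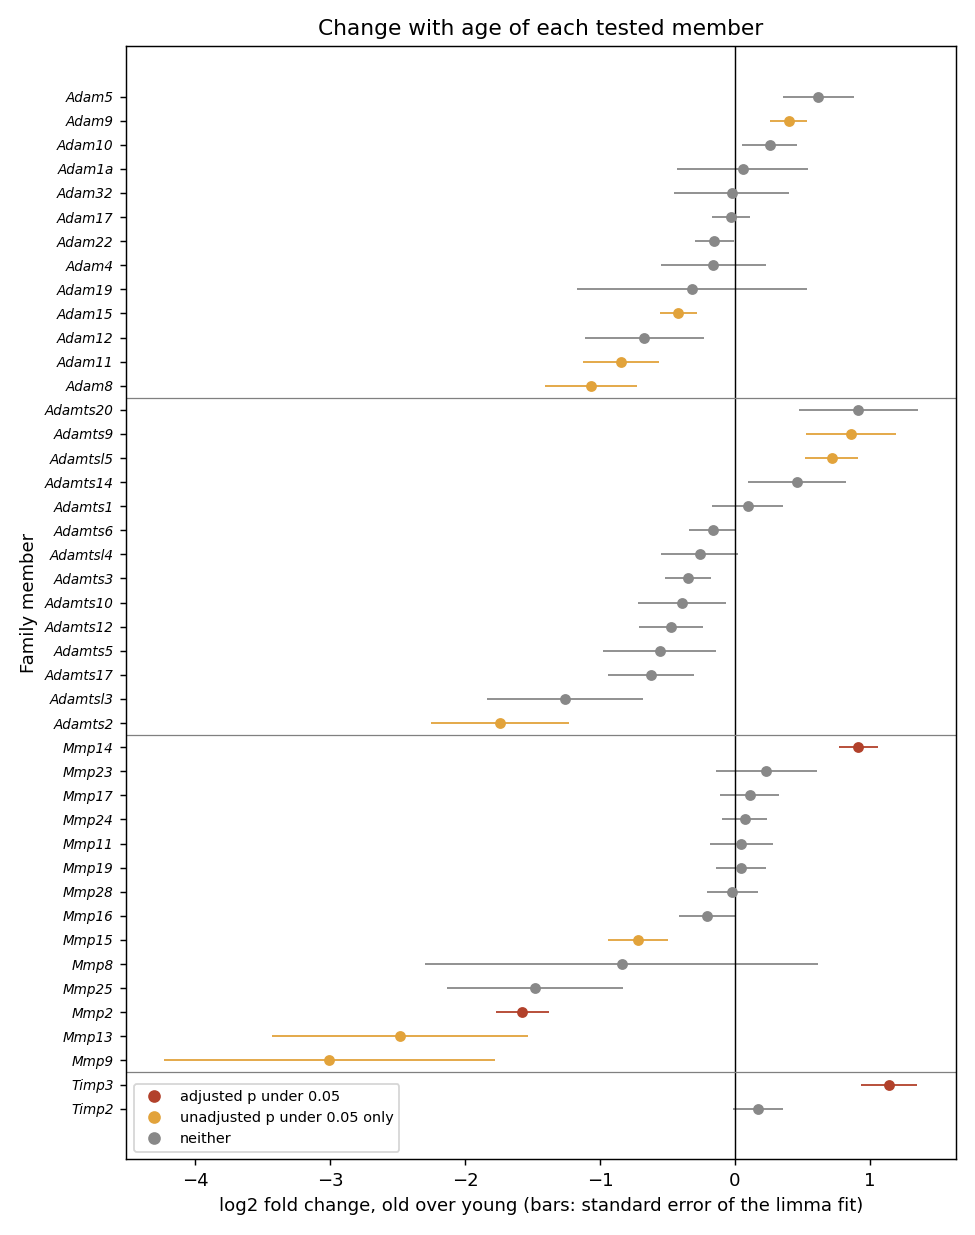
Fitted log2 fold change, old over young, of each of the 43 tested members, with the standard error of the limma fit as bars, grouped by family. Mmp14 (0.92) and Timp3 (1.14) lie right of 0 and Mmp2 (-1.57) left of it past the adjusted threshold, and 10 more members pass an unadjusted p of 0.05 alone.

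Across the 43 tested members, 26 had a fitted change below 0, which is 60.5%, where 43.5% of all rows tested were below 0. Their median log2 fold change was -0.16, where that of all rows was 0.04. An unadjusted p under 0.05 was reached by 13 members, or 30.2%, where 14.0% of all rows reached it. Of the 13, 5 were higher, where 8.97% of all rows were, and 8 were lower, where 5.08% were. The ages did not overlap in 23 members, where this held for 42.1% of all rows. Both old replicates were above both young ones in 7 members, or 16.3%, where 24.7% of all rows showed this. Both old replicates were below both young ones in 16 members, or 37.2%, where 17.4% of all rows showed it. The members are not independent of each other, and no test was made of these shares. The 26 members below 0 shared that direction with 11 of the 12 neutrophil markers and all 12 tested stromal markers. Whether any member varied with those markers was not tested. In the authors' deposited table, 69 members carried an FDR and 18 of these, or 26.1%, were under 0.05, where 14.2% of all rows with an FDR were. Of the 18, 5 were higher and 13 lower in old HSCs, and they included Mmp14, Timp3 and Mmp2. The libraries that table counted as replicates are not stated, and 4 of the 18 had overlapping replicates by the values used here.

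Partners, inhibitors and substrates of the proteases were taken from textbook lists. Of 20 sheddase partners and activators, 18 were tested and none was called by limma or by limma-voom. In limma 3 of the 18 had an unadjusted p under 0.05, where 14.0% of all rows did. Rhbdf2, the rhomboid-like protein that carries ADAM17 to the surface, had 427 and 461.5 in the old replicates, against 459.5 and 447.5 in the young ones. Tspan14, a tetraspanin that carries ADAM10, had 11113 and 15232 in the old replicates, against 10444.5 and 10543 in the young ones. Furin, which removes the inhibitory prodomain of many members, had 5289.5 and 4355 in the old replicates, against 5123.5 and 4684 in the young ones. Of 12 other inhibitors 6 were tested and none was called by either tool (0 at an unadjusted p under 0.05). Reck, a membrane-anchored inhibitor of Mmp14, Mmp2 and Mmp9, had 367 and 443 in the old replicates, against 507.5 and 444 in the young ones.

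Membrane proteins that ADAM10 or ADAM17 are known to shed gave 47 tested rows, of which 3 rose and 1 fell with age in limma, where 2.01% of all rows were called higher and 0.540% lower. An unadjusted p under 0.05 was reached by 17 of the 47, where 14.0% of all rows reached it. By limma-voom 3 of the 4 were called, with Procr at an adjusted p of 0.0531 in that fit. Of all 18318 rows tested, limma-voom called 367 higher and 98 lower. Ptprk, a receptor tyrosine phosphatase, had 1209 and 1220 in the old replicates, against 260.5 and 294.5 in the young ones, with a log2 fold change of 2.13 (SE 0.17) and an adjusted p of 0.00274. Alcam, an adhesion molecule, had 7781 and 8019.5 in the old replicates, against 2878.5 and 2961 in the young ones, with a log2 fold change of 1.44 (SE 0.13) and an adjusted p of 0.00423. Procr, the protein C receptor also used as an HSC marker, had 5672.5 and 6435 in the old replicates, against 3713.5 and 3059.5 in the young ones, with a log2 fold change of 0.84 (SE 0.16) and an adjusted p of 0.0484. Vcam1, an adhesion molecule bound by integrin VLA-4, had 316 and 325 in the old replicates, against 666 and 910 in the young ones, with a log2 fold change of -1.28 (SE 0.21) and an adjusted p of 0.0274. In each of these 4 the ages did not overlap, where 42.1% of all rows tested did not. With 2 replicates per age a call favours rows of this kind, so this adds nothing to the calls. RNA levels carry no measure of how much of a protein was shed.

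Of 33 matrix substrates 28 were tested, 2 rose and 6 fell with age in limma, where 2.01% of all rows were called higher and 0.540% lower. An unadjusted p under 0.05 was reached by 15 of the 28, where 14.0% of all rows reached it. By limma-voom 8 were called, where it called 367 of all 18318 rows tested higher and 98 lower. Vwf, the von Willebrand factor cut by Adamts13, had 35059.5 and 40728.5 in the old replicates, against 10990 and 13906 in the young ones, with a log2 fold change of 1.61 (SE 0.19) and an adjusted p of 0.0106 in limma. Col18a1, the basement membrane collagen from which endostatin is cut, had 1361.5 and 1613.5 in the old replicates, against 468 and 563 in the young ones, with a log2 fold change of 1.53 (SE 0.18) and an adjusted p of 0.0098. The genes that fell were Col1a1, Col3a1, Col5a1, Col5a2, Col4a2 and Sparc. Col4a2, a basement membrane collagen, had 2379 and 2198 in the old replicates, against 4995 and 4282.5 in the young ones, with a log2 fold change of -1.02 (SE 0.15) and an adjusted p of 0.0199. Among the fibrillar collagens, the main substrate of collagenases, Col1a1, Col3a1, Col5a1 and Col5a2 were called lower, while Col1a2 and Col2a1 were not called. Col1a2 had 747 and 822.5 in the old replicates, against 1462 and 2511.5 in the young ones. Its log2 fold change was -1.29 (SE 0.26) with an adjusted p of 0.0550 in limma. Col1a1 had 65 and 58 in the old replicates, against 905.5 and 1794 in the young ones, with a log2 fold change of -4.36 (SE 0.33) and an adjusted p of 0.00236. Col3a1 had 16 and 42 in the old replicates, against 153.5 and 160 in the young ones, with a log2 fold change of -2.57 (SE 0.46) and an adjusted p of 0.0381. Those of type V form mixed fibrils with type I. Col5a1 had 109.5 and 71.5 in the old replicates, against 241.5 and 255 in the young ones, with a log2 fold change of -1.48 (SE 0.28) and an adjusted p of 0.0449. Col5a2 had 19 and 6.5 in the old replicates, against 82.5 and 113.5 in the young ones, with a log2 fold change of -3.06 (SE 0.52) and an adjusted p of 0.0334. Sparc, a matrix protein that binds collagen, had 67 and 69.5 in the old replicates, against 357.5 and 537 in the young ones, with a log2 fold change of -2.67 (SE 0.26) and an adjusted p of 0.00499. In all 8 called matrix genes the ages did not overlap, where this held for 42.1% of all rows tested. A call on 2 replicates per age favours such rows, so this adds nothing to the calls. Col1a1, Col1a2, Col3a1 and Sparc are also stromal markers, whose summed level is given above. The part of stromal transcripts in these matrix genes was not tested.

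**Figure D5:**
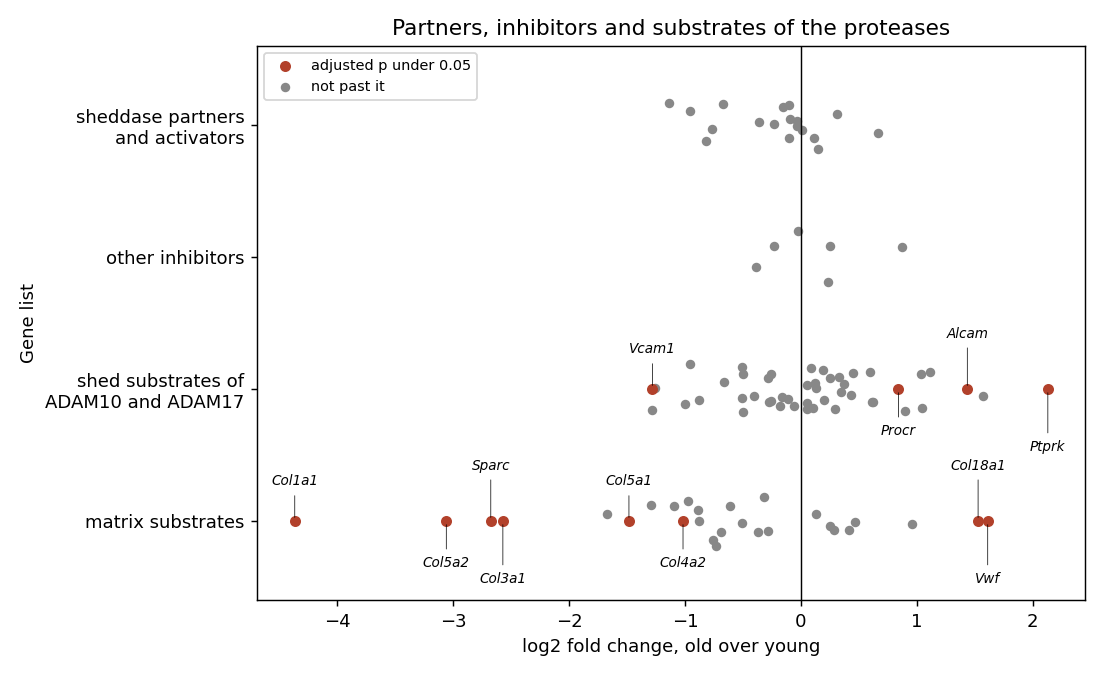
Log2 fold change, old over young, of each tested gene among sheddase partners and activators, other inhibitors, shed substrates of ADAM10 and ADAM17, and matrix substrates. Named red points pass an adjusted p of 0.05: Ptprk (2.13), Alcam (1.44) and Procr (0.84) lie right of 0 and Vcam1 (-1.28) left of it, with Vwf and Col18a1 right and 6 matrix genes left among the matrix substrates.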

How the data were processed

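Each library's deposited table lists 2 values per gene. The first, labelled as a count, is a score: the authors scaled each library's reads and rounded them, as the spacing of the values shows (factors 0.617 to 1.839), and the libraries then summed to between 40.74 M and 44.22 M. The second is an FPKM, deposited as that score times a constant of the gene. Build mm9 and DESeq, with no version, are named per the submitters' processing notes; the aligner is not given in the sources used here, nor is the use of strand. The authors' deposited table further lists their own log2 fold changes with FDR values (q-values, that is, p-values adjusted for many tests).

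After averaging technical pairs, limma 3.58.1 (R 4.3.3) was fitted to log2(value + 0.5) of the 4 biological replicates, with 1 term for age, a trend on level in the empirical Bayes step and two-sided tests. Benjamini-Hochberg adjustment ran over the 18318 of 38172 rows that reached 10 in 2 or more replicates, and rows with an adjusted p under 0.05 were called. Fold changes have old HSCs on top; with the 0.5 added, those of low genes are understated. The fit was tested on simulated data. Floors cover counting error only. Members and gene lists were chosen with earlier results of these data known. Every tested member is named. Values in each replicate with fold change, SE and p are given for members with an adjusted or unadjusted p under 0.05, for the 3 with the highest FPKM in each family, and for related genes with an adjusted p under 0.05. Timp1 is named by its FPKM and was not tested, so it has values only. Promoters came from RefSeq and zinc sites from GENCODE M21, both on GRCm38, whose coordinates differ from those of mm9.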

Additional observations from a re-analysis of the deposited data

How the results depend on the processing

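Of 234 values from 20 members followed through 12 alternatives, 197 kept their direction and their side of the threshold, and 9 turned in direction. With no filter on low values limma called 0 of all rows higher (1826 at an unadjusted p under 0.05) and 0 lower (1117), with Mmp2 at an adjusted p of 0.0777, Mmp14 at 0.119 and Timp3 at 0.219, so 0 members were called in either direction. With rows of at least 1 FPKM, 237 of all rows were called higher and 65 lower in place of 368 and 99. The lower-numbered technical libraries alone gave 55 rows lower and the higher-numbered ones 52. Of the members called higher, 1 in place of 2 was left with median-ratio factors and with the higher-numbered technical libraries. TMM factors were also tried, and with them Timp3 did not pass the adjusted test while Mmp14 and Mmp2 did; their values are not kept, because edgeR, which computed them, is meant for counts. The limma-voom fit is likewise built for counts, so its calls on these scaled values are only a comparison. Leaving out 1 replicate at a time gave between 0 and 206 rows called higher and between 0 and 68 lower: 0 and 0 without old replicate 13, 0 and 0 without old replicate 14, 206 and 68 without young replicate 13, and 172 and 15 without young replicate 14. In these fits, where the lone sample is assumed to vary like the other age, 0 members were called higher and 0 lower, and the adjusted p ranged from 0.0566 to 0.194 for Mmp2, from 0.144 to 0.238 for Mmp14 and from 0.056 to 0.359 for Timp3. Their log2 fold changes kept direction, at -1.63 to -1.51, 0.85 to 0.98 and 0.91 to 1.38. Values near 0 turned in direction. Over the fits without 1 replicate, Adam17 ranged from -0.0975 to 0.0361, Adamts10 from -0.8406 to 0.0623, Mmp24 from -0.0125 to 0.1616, Mmp28 from -0.0861 to 0.0501 and Timp2 from -0.0491 to 0.3927. Adam17 was at 0.0068 with the higher-numbered libraries, 0.0274 without old replicate 13 and 0.0361 without young replicate 14. Adamts10 was at 0.0623 and Timp2 at -0.0491 without old replicate 14, and Mmp24 at -0.0125 without young replicate 14. Mmp28 was at 0.0550 with the higher-numbered libraries, 0.0389 without old replicate 13 and 0.0501 without young replicate 13. The cause was not tested. The replicate numbers are shared between the ages, but the labels do not say that they pair samples, and with 2 pairs the correlation of same-numbered deviations was 0.544. With a replicate block 1698 of all rows were called higher and 1068 lower, and 6 members were called higher and 11 lower.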

Other observations

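Members under the filter on low values included some with both old replicates below both young ones. Adam33, known from airway smooth muscle, had 1 and 1.5 in old replicates 13 and 14, against 7 and 5.5 in young replicates 13 and 14. Adamts4, the aggrecanase of cartilage, had 1.5 and 1 in the old replicates, against 3 and 3 in the young ones. Both were chosen for mention after their values were seen and were not tested.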
